A study of Homo sapiens with 6 samples.

Results

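TRAF1 and 38 further genes of NF-kB signalling were followed in EJ cells after knockdown of STIL. They make up 39 of the 15953 genes in the deposited expression tables, and all 39 were found there. The group was chosen by the rise of TRAF1, which had the largest log2 fold change of 3217 genes that were higher in the knockdown libraries among called genes whose mean was 3 or more on the log2 CPM scale and whose groups did not overlap. The other 38 genes were taken by name as parts of the same pathway, with earlier results of the same comparison known. The values of TRAF1 are therefore given as a description without a test, and the counts over the group are read as descriptions.

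EJ is an established human bladder cancer cell line. The RNA-seq compared stable STIL-knockdown EJ cells (shSTIL, 3 libraries), made with a lentivirus that carries a short hairpin RNA against STIL, with EJ cells that carry the negative control virus (shNC, 3 libraries). STIL is a centriole assembly protein, and the study asked what its loss does in bladder cancer cells. The hairpin sequence, the number of clones and the age of the cultures are not given in the sources used here. No source says that either group held more than 1 line. No source says that the 3 libraries of a group came from separate cultures, so the p-values measure only the spread between these libraries, which may be technical. The sample labels say shNC and shSTIL, whereas the headings inside the tables say siNC and siSTIL, and the labels were followed.

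NF-kB is a family of transcription factors that inhibitor proteins, the IkB family, hold in the cytoplasm. Signals from receptors of the TNF family pass through TRAF adaptors and ubiquitin ligases to the IkB kinases, which mark the inhibitors for degradation and so release the factors to the nucleus. A slower branch runs through the kinase encoded by MAP3K14 and ends in processing of the NFKB2 product and dimers with RELB. Many target genes of the factors encode inhibitors of the same pathway, among them NFKBIA, TNFAIP3 and BIRC3, so its transcripts are often read as a record of its activity, which RNA levels alone do not measure.

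Estimated reads over all 15953 genes summed to 16214772 to 16431242 per library in shNC and 16734469 to 16901634 in shSTIL. The targeted gene, STIL, had a log2 CPM (reads of the gene scaled to library size, on the log2 scale) of 5.98, 6.10 and 6.01 in shNC and of 4.05, 4.06 and 4.01 in shSTIL libraries. All shSTIL libraries lay below all shNC libraries, with 25.2% of the control level left (log2 fold change -1.99, standard error 0.05, limma adjusted p = 6.1e-12). Among cell type markers, the keratins KRT8 and KRT18 and the mesenchymal gene VIM were abundant, whereas CDH1, KRT5, KRT20, UPK2 and GATA3 had under 10 reads in every library. Of 16 urothelial and epithelial markers, 6 were at that level, UPK1A had 19 to 33 reads per library, and KRT7, PPARG and FOXA1 had over 100. The summed level of 8 mesenchymal markers was 1564 to 1588 CPM in shNC and 1005 to 1024 CPM in shSTIL. From 91.2% to 92.5% of it came from VIM, and the markers did not all follow it, since ZEB2 rose and ZEB1 and CDH2 were not called. That of the 16 urothelial and epithelial markers was 1097 to 1143 CPM in shNC and 1012 to 1053 CPM in shSTIL. Of this sum, 55.3% to 61.4% came from KRT18, which was not called. KRT8, FOXA1 and UPK1B fell, and KRT7 and PPARG rose. The 8 leukocyte markers in the tables summed to 12.3 to 13.1 CPM in shNC and 15.6 to 18.3 CPM in shSTIL, most of it from CD68, and 5 of them had under 10 reads in every library. The 5 endothelial markers summed to at most 1.04 CPM in shNC and 0.948 CPM in shSTIL. The part of these shifts in the results below was not tested. In bulk RNA, a change in the number of cells that express a gene and a change in RNA per cell cannot be told apart.

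STIL-knockdown cells had higher levels of most of the 39 genes. Under limma with Benjamini-Hochberg adjustment over all 15953 genes, 26 of the 39 (66.7%) rose at an adjusted p under 0.01, TRAF1 among them, where 23.5% of all genes did. TRADD, TNFRSF1A and REL, 3 of the 39 (7.69%), fell, where 23.6% of all genes did. A log2 fold change over 1 was reached by 7 of the called genes (TRAF1, LTB, RELB, BIRC3, TNFAIP3, ICAM1 and NFKBIB), against a background of 2.86% of all genes. None of the 3 that fell passed -1, and only 495 of all 15953 genes were called below that level. At an adjusted p under 0.05 the counts were 26 higher, where 28.3% of all genes were, and 5 lower, where 28.0% were. The median log2 fold change was 0.41 over the 39 genes and 0.0052 over all genes. Because the comparison that chose the group also gives these shares, nothing further is read from them.

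**Figure D1:**
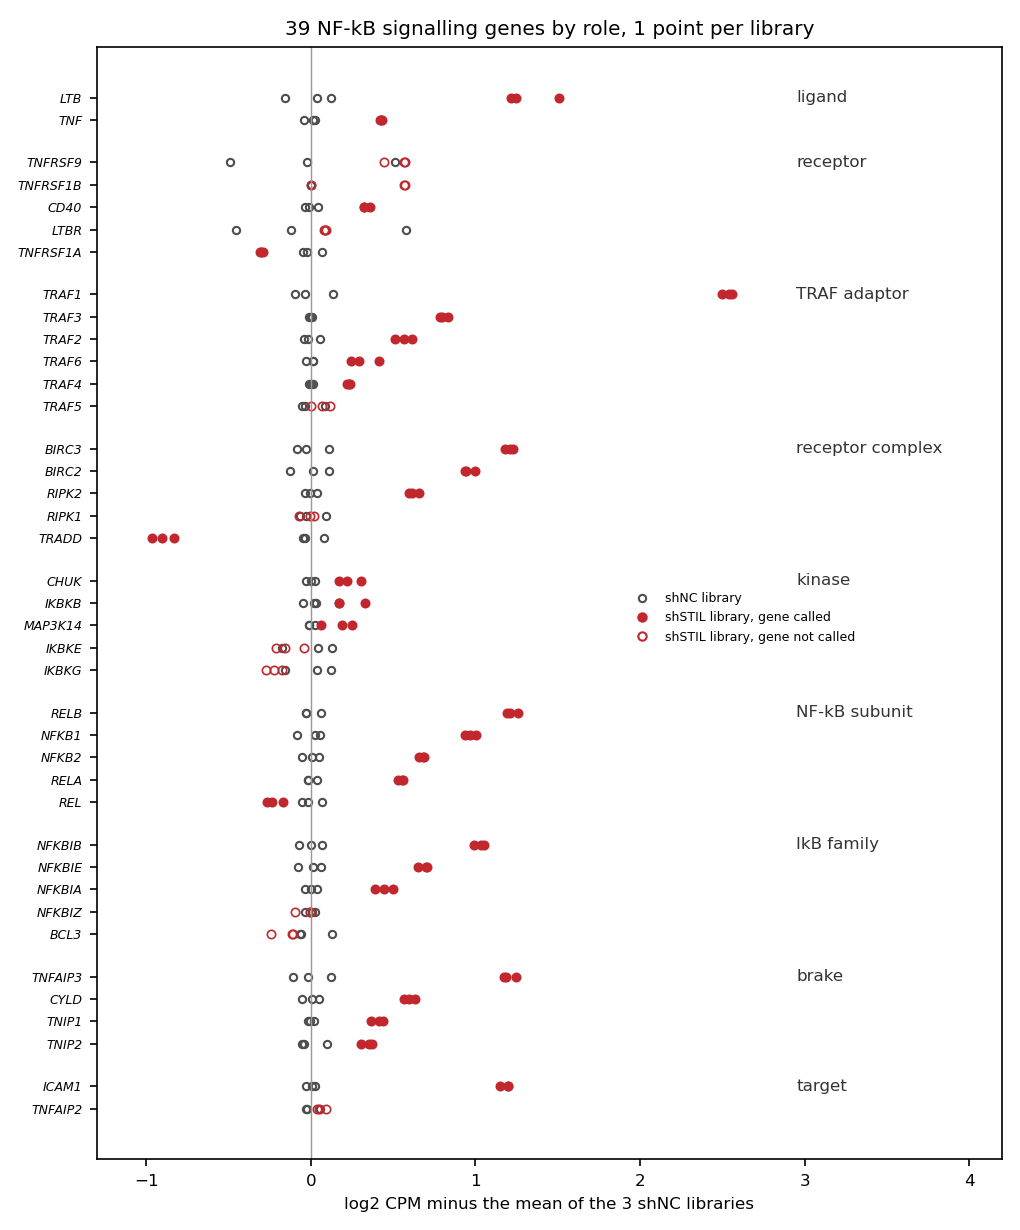
Each point is 1 library, placed by its log2 CPM minus the mean of the 3 shNC libraries (x axis), for the 39 genes grouped by role (y axis); grey circles are shNC, filled red points are shSTIL libraries of called genes and open red circles shSTIL libraries of genes not called. The 3 shSTIL points of TRAF1 lie near 2.5 and those of TRADD near -0.9. Those of LTB, BIRC3, RELB, NFKBIB, TNFAIP3, ICAM1, NFKB1 and BIRC2 lie near or above 1.

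In 26 of the 39 genes every shSTIL library lay above every shNC library, where 29.9% of all genes showed this. In 5 genes every shSTIL library lay below (TRADD, TNFRSF1A, REL, IKBKG and BCL3), where 30.5% of all genes did. In the remaining 8 the groups overlapped. An exact two-sided permutation test gives p = 0.1 for each of the other genes without overlap, the smallest value that 20 labellings of 6 libraries allow. When the fit was limited to the 11319 genes whose mean was 1 or more on that scale, 36 of the 39 genes remained, of which 26 rose (background 32.5%) and 4 fell (background 33.3%), the added one being IKBKG.

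**Figure D2:**
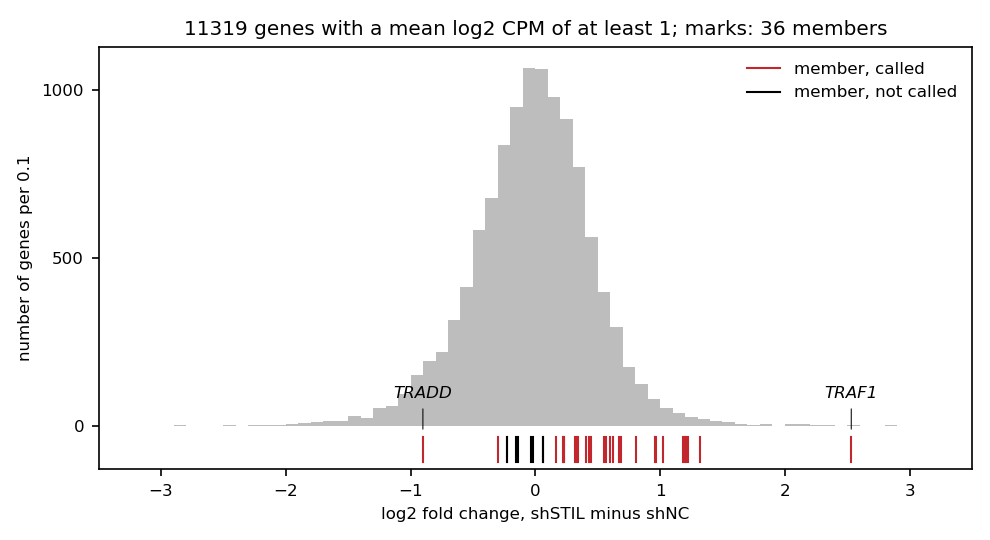
The histogram gives the number of genes (y axis) by log2 fold change, shSTIL minus shNC, in steps of 0.1 (x axis) for the 11319 genes whose mean log2 CPM was 1 or more; marks below it are the 36 NF-kB signalling genes above that level, red where called and black where not. TRAF1, by whose rise the group was chosen, stands at 2.53, the other marks end at 1.32 (LTB), and TRADD is the lowest at -0.90.

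The sequences in front of these genes were examined for the NF-kB decamer consensus, the motif that the factors bind, since many of the 39 genes are known targets, which also means that the group is not an independent sample of genes. RefSeq promoter windows (GRCh38.p14, 250 bases before to 50 after a start) were at hand for 33 of the 39 genes, and not for RELB, NFKBIE, CD40, IKBKB, RIPK2 and TRADD. Both strands were searched for GGGRNNYYCC (R is A or G, Y is C or T, N is any base), and overlapping matches were merged. Sites that depart from these letters were not counted. A match stood in at least 1 window of 14 of the 33 genes (42.4%), against 17.2% of the 12621 genes of the expression tables that have a window. By window, 18 of 53 held a match (34%), against 11.3% of all 35116 windows. Of the 14 genes with a match 10 rose and 1 fell, and of the 19 genes with windows but no match 11 rose and 1 fell. Of all genes 23.5% rose and 23.6% fell, and these shares were not split by match. A match is a run of letters, not a shown binding site. Matches of genes that rose, of REL, which fell, and of NFKBIZ, which was not called, are shown here as examples, with the match in capitals and the neighbouring bases in lower case, 5′ to 3′ on the strand of the gene, and the numbers before the colon are the positions of the match from the start. Further matches in NFKB2, CYLD, NFKBIB, NFKBIZ and LTB, and those of TNIP1, TNFRSF9 and BCL3, are not printed. The stretch is kept short where a GENCODE 29 exon reaches into it.
BIRC3, chr11:102317265-102317314, plus strand, -199 to -190: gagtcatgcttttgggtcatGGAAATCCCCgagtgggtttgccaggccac
BIRC3, chr11:102317329-102317378, plus strand, -135 to -126: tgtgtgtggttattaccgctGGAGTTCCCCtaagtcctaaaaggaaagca
TRAF3, chr14:102777396-102777445, plus strand, -33 to -24: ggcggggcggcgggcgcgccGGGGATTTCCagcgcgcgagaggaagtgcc
NFKBIA, chr14:35404801-35404850, minus strand, -81 to -72: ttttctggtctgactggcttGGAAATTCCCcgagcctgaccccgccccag
CYLD, chr16:50741877-50741926, plus strand, -189 to -180: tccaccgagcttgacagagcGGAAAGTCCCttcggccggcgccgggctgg
NFKBIZ, chr3:101827747-101827796, plus strand, -223 to -214: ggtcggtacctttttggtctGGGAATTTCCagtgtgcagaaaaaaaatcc
NFKB1, chr4:102501301-102501328, plus strand, -49 to -40: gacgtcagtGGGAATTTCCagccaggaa
NFKB2, chr10:102394462-102394490, plus strand, -107 to -97: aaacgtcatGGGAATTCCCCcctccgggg
TNFAIP3, chr6:137867183-137867210, plus strand, -67 to -58: cgtgactttGGAAAGTCCCgtggaaatc
TNFAIP3, chr6:137867195-137867222, plus strand, -55 to -46: aagtcccgtGGAAATCCCCgggcctaca
LTB, chr6:31582493-31582520, minus strand, -86 to -77: ggggtgtgcGGAAAGTCCCagccaggtg
NFKBIB, chr19:38899932-38899960, plus strand, -28 to -18: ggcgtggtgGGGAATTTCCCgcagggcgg
REL, chr2:60881518-60881546, plus strand, -47 to -37: gtcagccgcGGGAAATTCCCctcccgcca

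Of the 14 genes with a match, REL was the only 1 that fell, against 10 that rose. The pairs that follow are examples picked by their letters, and whether a match goes with a direction was not tested. REL, which fell, and NFKBIB, which rose, both hold an 11-base run of overlapping matches on both strands within 50 bases of a start. NFKBIZ, which was not called, holds the same 10 letters as NFKB1, which rose. None of the 3 windows of TRAF1 holds a match, and the stretch in front of its most upstream start is printed for that reason (chr9:120929174-120929421, minus strand). TNF and ICAM1, which rose, each had 1 window and no match in it. These windows cover only the bases next to a start, and a window without a match can still hold a site with other letters.
TRAF1: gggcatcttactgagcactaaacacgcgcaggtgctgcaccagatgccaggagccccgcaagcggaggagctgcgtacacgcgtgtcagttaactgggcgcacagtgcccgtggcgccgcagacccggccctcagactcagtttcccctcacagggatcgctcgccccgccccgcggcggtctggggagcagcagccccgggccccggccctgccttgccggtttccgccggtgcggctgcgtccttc

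**Figure D3:**
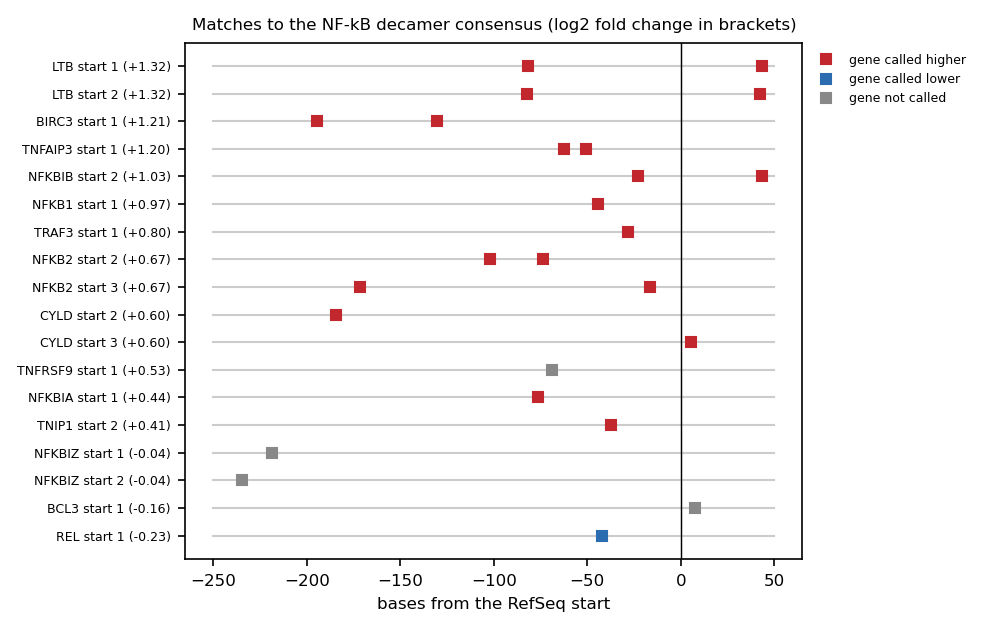
Squares mark matches to the NF-kB decamer consensus by their distance in bases from a RefSeq start (x axis, grey lines span the window searched) for the 14 genes with a match, 1 line per start, ordered by the log2 fold change in brackets; red is called higher, blue called lower and grey not called. Matches lie between positions -239 and 48 from a start, and REL, with the only blue square, has its match at -47 to -37.

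Of the ligands, both rose. LTB, the membrane-bound lymphotoxin subunit, had a log2 CPM of 2.60, 2.40 and 2.68 in shNC and of 3.80, 4.07 and 3.77 in shSTIL, or 84 to 100 against 230 to 286 reads. Its groups were separated by more than their own ranges, and it had the largest fold change after TRAF1 (log2 fold change 1.32, standard error 0.12, limma adjusted p = 3.9e-07, 2.50-fold). TNF, the founding cytokine of the family, was at 6.45, 6.39 and 6.47 in shNC and at 6.87, 6.87 and 6.86 in shSTIL. The 3 shSTIL libraries were nearly level with each other and all above the controls (log2 fold change 0.43, standard error 0.03, limma adjusted p = 2.0e-07). TNF and LTB lie 2188 bases apart on chromosome 6, on opposite strands.

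The receptors moved less and not in 1 direction. TNFRSF1A, the main TNF receptor of most tissues, had a log2 CPM of 7.84, 7.74 and 7.72 in shNC and of 7.46, 7.47 and 7.46 in shSTIL. It fell in all 3 shSTIL libraries, by 0.30 on the log2 scale (standard error 0.04, limma adjusted p = 6.2e-06), to 81.1% of the control level. CD40, which signals through TRAF proteins to both branches of the pathway, rose from 6.56, 6.53 and 6.61 to 6.93, 6.89 and 6.89 (log2 fold change 0.34, standard error 0.04, limma adjusted p = 2.3e-06). The remaining receptors were close to the floor of the tables and were not called. TNFRSF9 had 3 to 8 reads in shNC and 8 to 9 in shSTIL, LTBR, the receptor of LTB, had 2 to 6 and 4, and TNFRSF1B had 0 in shNC and 0 to 1 in shSTIL. Differences in these 3 genes were not detectable at this depth.

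TRAF1 had the largest rise of its family, which follows from the rule that chose the group and is not a separate result. TRAF1 (ENSG00000056558, chr9:120902393-120929173, minus strand, GRCh38) encodes an adaptor that lacks the RING domain of its relatives, binds TRAF2 and the BIRC2 and BIRC3 ligases, and is itself a known NF-kB target. Its log2 CPM was 4.46, 4.23 and 4.29 in shNC and 6.87, 6.89 and 6.83 in shSTIL, which corresponds to 351, 304 and 310 reads against 1994, 2034 and 1924. The shSTIL libraries agreed within 0.03 (SD) and the shNC libraries within 0.12 (SD, n = 3 each), and the gap between the groups was 2.53 on the log2 scale, a 5.78-fold difference. Over all genes, those near the floor included, TRAF1 ranked 13 among the rises.

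Of the other TRAF genes, 4 rose and 1 was not called. TRAF3, which holds the kinase encoded by MAP3K14 in check, went from 6.04, 6.02 and 6.03 to 6.81, 6.83 and 6.86, with no overlap (log2 fold change 0.80, standard error 0.03, limma adjusted p = 4.8e-10). TRAF2, the partner of TRAF1 at TNF receptors, went from 5.09, 5.11 and 5.19 to 5.69, 5.74 and 5.64 (log2 fold change 0.56, standard error 0.05, limma adjusted p = 3.3e-07). TRAF6, the adaptor of interleukin and Toll-like receptors, rose by 0.32 (standard error 0.07, limma adjusted p = 0.00154), with the shSTIL libraries at 4.29, 4.34 and 4.46 and the shNC libraries between 4.02 and 4.06. Its call was lost without any 1 of the shNC libraries or without shSTIL replicate 2 (log2 fold change 0.30 to 0.33, limma adjusted p at most 0.0152). TRAF4, an atypical member first found in breast tumours, rose by 0.23 (standard error 0.03, limma adjusted p = 4.2e-05). TRAF5 had 5.04, 5.17 and 5.05 in shNC and 5.09, 5.20 and 5.15 in shSTIL, the groups overlapped, and the 95% confidence interval of the difference was -0.060 to 0.18 (limma adjusted p = 0.395).

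**Figure D4:**
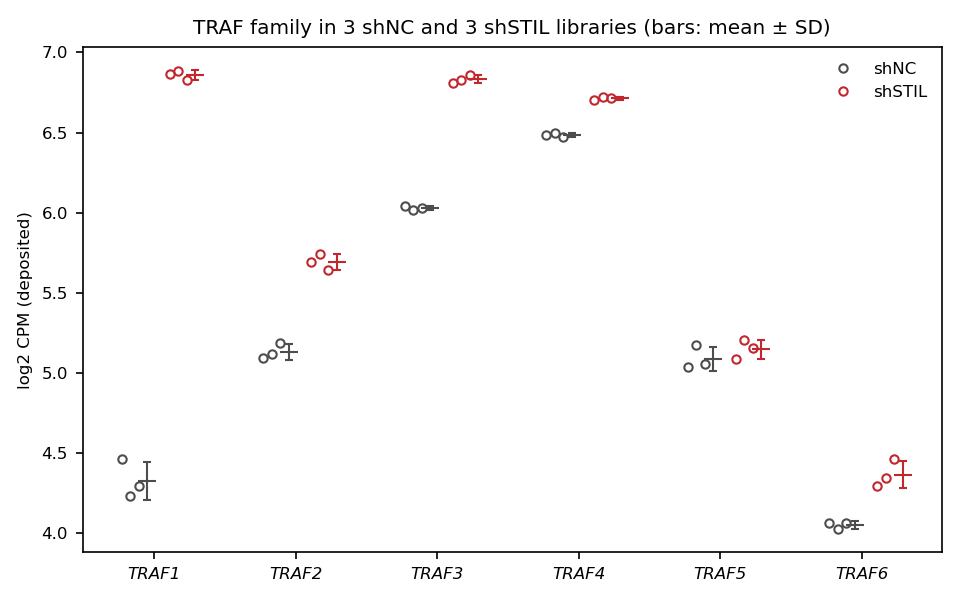
Circles are single libraries (grey shNC, red shSTIL) and bars the mean ± SD of 3 libraries, on the deposited log2 CPM scale (y axis) for TRAF1 to TRAF6 (x axis). TRAF1 moves from a mean of 4.33 to 6.86, TRAF3 from 6.03 to 6.83 and TRAF2 from 5.13 to 5.69, while the 2 groups of TRAF5 overlap; levels of different genes are not comparable here because gene length is not taken into account.

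Among the proteins recruited to the receptors, the ligases and TRADD moved in opposite directions. BIRC3, a ubiquitin ligase that keeps the slow branch off, had a log2 CPM of 7.67, 7.87 and 7.73 in shNC and of 8.98, 8.97 and 8.93 in shSTIL. It rose 2.31-fold (log2 fold change 1.21, standard error 0.04, limma adjusted p = 8.9e-11). Its neighbour and close relative BIRC2, 7807 bases away on chromosome 11, went from 6.71, 6.94 and 6.85 to 7.77, 7.83 and 7.77 (log2 fold change 0.96, standard error 0.05, limma adjusted p = 2.3e-09). All shSTIL libraries lay above all shNC libraries for both genes, and the recovered reads of both were whole numbers in every library. RIPK2, the kinase behind the NOD receptors, rose by 0.62 (standard error 0.04, limma adjusted p = 4.4e-08).

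TRADD, the adaptor that the death domain of TNFRSF1A recruits first, had the largest fall of the 39 genes. Its log2 CPM was 4.17, 4.05 and 4.04 in shNC and 3.18, 3.25 and 3.12 in shSTIL, or 260 to 286 against 146 to 162 reads. The groups were far apart, and TRADD fell by 0.90 on the log2 scale (standard error 0.08, limma adjusted p = 7.6e-07) to 53.5% of the control level. Its exons share 126 of 2567 bases with a gene on the opposite strand, and reads there cannot be assigned without strand. RIPK1, the kinase that binds TRADD, was between 5.41 and 5.57 in both groups (95% confidence interval of the difference -0.13 to 0.09, limma adjusted p = 0.79). TRADD and TNFRSF1A thus fell while TNF rose and RIPK1 was not called.

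The kinases showed small differences. CHUK and IKBKB, the catalytic subunits of the IkB kinase complex, rose by 0.23 each (standard errors 0.05 and 0.06, limma adjusted p = 8.4e-04 and 0.00481). MAP3K14, the kinase of the slow branch, had 5.83, 5.86 and 5.83 in shNC and 6.09, 6.03 and 5.90 in shSTIL, and its rise of 0.17 only just passed the threshold (standard error 0.05, limma adjusted p = 0.00994). These 3 calls did not hold under several other settings. MAP3K14 lost its call in 11 of 14, IKBKB in 9 and CHUK in 5, with limma adjusted p-values of up to 0.102, 0.0508 and 0.0168 when 1 library was left out. IKBKG, the regulatory subunit, had 5.50, 5.22 and 5.42 in shNC and 5.16, 5.11 and 5.20 in shSTIL and only just missed the threshold (log2 fold change -0.23, standard error 0.07, limma adjusted p = 0.0101). A near-identical pseudogene copy and a gene on the opposite strand that shares 342 of its 3529 exonic bases make the value of IKBKG uncertain. IKBKE, the inducible relative of the complex, had 69 to 85 reads per library and overlapping groups (95% confidence interval -0.44 to 0.17, limma adjusted p = 0.447).

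Of the 5 NF-kB subunits 4 rose and REL fell. RELB, the transactivating partner in the slow branch, went from 5.84, 5.75 and 5.75 to 6.99, 7.04 and 6.98 (log2 fold change 1.22, standard error 0.04, limma adjusted p = 3.4e-11), a 2.33-fold rise. NFKB1, which encodes the precursor of the classical DNA-binding subunit, went from 6.10, 5.96 and 6.07 to 7.01, 7.05 and 6.98 (log2 fold change 0.97, standard error 0.04, limma adjusted p = 5.2e-10). NFKB2, its counterpart in the slow branch, went from 8.01, 7.90 and 7.96 to 8.64, 8.61 and 8.64 (log2 fold change 0.67, standard error 0.03, limma adjusted p = 1.7e-09). RELA, the usual transactivating partner of the classical branch, went from 7.10, 7.04 and 7.04 to 7.59, 7.62 and 7.62 (log2 fold change 0.55, standard error 0.03, limma adjusted p = 7.6e-09). Within each of these 4 genes the groups were separated by several times the spread of the libraries.

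REL, the subunit best known from lymphoid cells, had a log2 CPM of 7.18, 7.31 and 7.22 in shNC and of 7.06, 7.00 and 6.97 in shSTIL. All shSTIL libraries were below all shNC libraries, and the fall was small (by 0.23 on the log2 scale, standard error 0.04, limma adjusted p = 2.7e-04, 85.5% of the control level). The call was lost in 4 of 14 other settings: with no mean-variance trend, and without shNC replicate 3, shSTIL replicate 2 or shSTIL replicate 3 (limma adjusted p of 0.0152 to 0.024). Some reads of REL were assigned as fractions by the authors' counting (2330.7 reads in shNC replicate 1), as happens where sequence is shared with another transcript. Of the 39 genes, 5 share exonic bases with another gene of the tables (LTBR, IKBKG, TRADD, NFKBIB and CHUK), from 37 bases in CHUK to 422 in LTBR.

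Of the 5 IkB family genes 3 rose and 2 were not called. NFKBIB went from 5.27, 5.20 and 5.13 to 6.19, 6.25 and 6.23 (log2 fold change 1.03, standard error 0.05, limma adjusted p = 7.2e-10). NFKBIE went from 5.56, 5.52 and 5.42 to 6.15, 6.20 and 6.21 (log2 fold change 0.69, standard error 0.05, limma adjusted p = 2.8e-08). NFKBIA, the main inhibitor of RELA dimers, went from 7.04, 6.96 and 7.00 to 7.44, 7.39 and 7.50 (log2 fold change 0.44, standard error 0.04, limma adjusted p = 2.5e-07). None of the 3 showed overlap. NFKBIZ, a nuclear IkB protein that is itself induced by cytokines, was between 6.13 and 6.25 in all 6 libraries (95% confidence interval of the difference -0.12 to 0.050, limma adjusted p = 0.482). BCL3, the nuclear partner of the NFKB1 and NFKB2 products, had 5.75, 5.56 and 5.56 in shNC and 5.38, 5.51 and 5.51 in shSTIL with every shSTIL library below every shNC library, and did not pass (log2 fold change -0.16, standard error 0.06, limma adjusted p = 0.04).

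The 4 genes that brake the pathway by editing or binding ubiquitin all rose. TNFAIP3, the ubiquitin-editing enzyme induced by NF-kB, had a log2 CPM of 4.90, 4.76 and 4.67 in shNC and of 6.02, 5.95 and 5.96 in shSTIL. This was a 2.30-fold rise without overlap (log2 fold change 1.20, standard error 0.06, limma adjusted p = 1.4e-09). CYLD, a deubiquitinase and tumour suppressor, went from 5.41, 5.51 and 5.47 to 6.06, 6.10 and 6.03 (log2 fold change 0.60, standard error 0.04, limma adjusted p = 7.3e-08). Its fold change was about the size of those of TRAF2 and RIPK2. TNIP1 and TNIP2, which bind the TNFAIP3 product, rose by 0.41 and 0.34 (standard errors 0.03 and 0.05, limma adjusted p = 1.2e-07 and 1.1e-04), and the call of TNIP2 was lost without shSTIL replicate 1 or 3 (limma adjusted p = 0.0109 and 0.0124).

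Of the 2 target genes that are not themselves signalling components, ICAM1, an adhesion molecule for leukocytes, went from 7.52, 7.47 and 7.50 to 8.69, 8.65 and 8.70. It rose 2.27-fold with the smallest standard error of the 39 genes (log2 fold change 1.18, standard error 0.03, limma adjusted p = 5.9e-12). TNFAIP2, named for its induction by TNF in endothelium, had 7.38, 7.29 and 7.30 in shNC and 7.36, 7.37 and 7.41 in shSTIL. Its groups overlapped, and the 95% confidence interval of the difference was -0.016 to 0.13 (limma adjusted p = 0.172).

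The rest of the pathway was described from further lists, whose counts stand beside the shares of all genes given above. Of 34 reported NF-kB target genes outside the 39, 20 rose and 4 fell, with a median log2 fold change of 0.37. PTX3, a soluble pattern recognition protein, rose from a mean log2 CPM of 5.55 ± 0.07 to 6.93 ± 0.07 (SD, n = 3 each; log2 fold change 1.39, limma adjusted p = 4.8e-11). GADD45B, a stress-induced gene, rose from 6.33 ± 0.09 to 7.49 ± 0.03 (log2 fold change 1.16, limma adjusted p = 1.0e-10). The chemokine gene CCL20 fell from 4.19 ± 0.08 to 2.91 ± 0.14 (by 1.28 on the log2 scale, limma adjusted p = 9.9e-08). CCL5, another chemokine gene, fell from 1.35 ± 0.03 to 0.72 ± 0.06 (limma adjusted p = 0.00743), from 37.9 to 39.7 reads to 24.8 to 27.6 reads per library. The call of CCL5 was lost in 8 of 14 other settings, namely with DESeq2 (adjusted p = 0.0602), with a prior count of 0.25, with a replicate block (limma adjusted p = 0.0155), without any 1 of the shNC libraries and without shSTIL replicate 1 or 3 (limma adjusted p at most 0.0115). Of the 13 cytokine and chemokine genes of the list, counted after their values were seen, 7 rose, 3 fell and 3 were not called. Among the target genes that were singled out after their values were seen, CXCL8 rose by 0.52, IL6 by 0.76 and CFLAR, an inhibitor of caspase activation, by 0.82 (limma adjusted p = 2.2e-08, 2.3e-06 and 8.9e-11), and IL1B went from 10 to 11 reads to 0 to 3 reads (limma adjusted p = 1.9e-04).

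The other receptor genes showed no common direction, whereas more of the other ligand genes fell than rose. Of 22 other TNF receptor genes 5 rose and 3 fell, with a median of -0.014. A mean of 1 or more on the log2 CPM scale was reached by 13 of the 22. TNFRSF12A, the receptor of TNFSF12, rose by 0.93 (standard error 0.04, limma adjusted p = 4.0e-10), and TNFRSF14 by 0.89 (standard error 0.15, limma adjusted p = 1.7e-04), whereas RELT fell by 0.60 and the death receptor gene FAS by 0.49 (limma adjusted p = 3.3e-05 and 1.6e-06). Of 14 other TNF family ligands 3 rose and 6 fell, with a median of -0.30. Only 6 of the 14 had a mean of 1 or more on that scale. TNFSF9, the ligand of TNFRSF9, fell by 0.84 (standard error 0.05, limma adjusted p = 1.5e-08) and EDA by 0.80 (standard error 0.16, limma adjusted p = 5.8e-04). TNFSF12, whose locus also gives a read-through transcript with TNFSF13, rose by 0.26 (limma adjusted p = 0.00867). The call of TNFSF12 was lost in 9 of 14 other settings, among them the omission of each of the 6 libraries in turn (log2 fold change 0.17 to 0.34, limma adjusted p of up to 0.159). That of EDA was lost without shNC replicate 2 or 3 or shSTIL replicate 2 or 3 (limma adjusted p of up to 0.0156).

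Of 43 other signalling components 15 rose and 10 fell, with a median of -0.012. IRAK1, a kinase downstream of Toll-like and interleukin receptors, rose by 0.69 (standard error 0.03, limma adjusted p = 1.1e-09), and the receptor gene TLR2 by 0.91 (standard error 0.13, limma adjusted p = 3.6e-05). MYD88, the adaptor between the receptors and IRAK1, fell by 0.42 (standard error 0.06, limma adjusted p = 4.3e-05), and COMMD1, which promotes removal of RELA from chromatin, fell by 0.45 (standard error 0.08, limma adjusted p = 3.1e-04). The call of COMMD1 was lost without shNC replicate 1 or 3 or shSTIL replicate 1 or 3 (limma adjusted p of up to 0.0143).

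**Figure D5:**
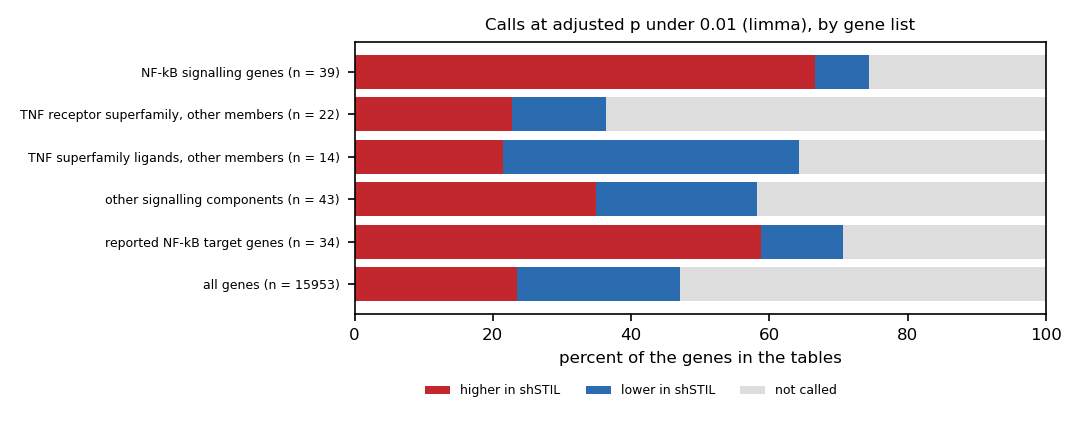
Bars give the percent of the genes of each list (y axis, with the number in the tables) that rose (red), fell (blue) or were not called (grey) at a limma adjusted p under 0.01. Of the 39 NF-kB signalling genes 66.7% rose and 7.69% fell, of the 34 reported target genes 58.8% and 11.8%, of the 43 other components 34.9% and 23.3%, of the 14 other ligands 21.4% and 42.9%, of the 22 other receptors 22.7% and 13.6%, and of all genes 23.5% and 23.6%.

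Of the 16 urothelial and epithelial markers 2 rose and 3 fell, and of the 8 mesenchymal markers 1 rose and 3 fell. Of all genes 23.5% rose and 23.6% fell. Among the markers, KRT7 and PPARG rose (by 0.49 and 0.26) and KRT8 and FOXA1 fell (by 0.70 and 0.53). ZEB2 rose by 0.74, whereas FN1 fell by 1.19 and COL1A1 by 0.96. All 7 passed the test (limma adjusted p from 8.8e-10 to 0.0046), but 3 of these calls were lost in other settings. PPARG lost it in 7 of 14, among them the omission of shNC replicate 1 or 2 or of any 1 of the shSTIL libraries (limma adjusted p of up to 0.0342). FOXA1 lost it in 7, among them the omission of any 1 of the 6 libraries (up to 0.0326). COL1A1 lost it in 6, among them the omission of shNC replicate 1 or 3 or of any 1 of the shSTIL libraries (up to 0.0503). CD79A, singled out after its value was seen, was the only leukocyte marker that rose, from 1 to 4 reads to 16 to 22 (limma adjusted p = 8.4e-05). UPK1B, singled out in the same way and also low, fell from 13 to 20 reads to 5 to 11 (limma adjusted p = 0.0035).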

How the data were processed

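Total RNA of 3 shNC and 3 shSTIL EJ libraries was sequenced on the BGISEQ-500. The authors filtered the reads with SOAPnuke, aligned them to a transcriptome with Bowtie2 and obtained gene-level estimates from RSEM; the processing notes also list limma and the build hg38, without versions. The deposited values are log2 CPM from edgeR for 15953 genes in all 6 libraries, and estimated counts, not normalized, for 15957 genes in shNC replicate 1 and the shSTIL libraries. RSEM divides reads between similar transcripts, and strand use in counting is not given in the sources used here.

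The groups were compared in R 4.3.3 with limma 3.58.1 (lmFit, then eBayes with trend), fitted to the log2 CPM as deposited for every gene, two-sided, with no replicate block and Benjamini-Hochberg adjustment, and called at an adjusted p under 0.01, the level of the study. The prior count of 2 behind the log2 CPM understates changes of genes with few reads. Reads were recovered from the spacing of the log2 CPM (88.1% to 88.5% whole within 0.02) and matched the deposited estimated counts within 0.0112 reads. They were rounded for the quasi-likelihood test of edgeR 4.0.16 and for DESeq2 1.42.0. Other alternatives were no trend, quantile normalization, median centring, a minimum mean of 1 on the log2 CPM scale, a prior count of 0.25, a replicate block and leaving out each library. The fits were also run on simulated counts with independent libraries, which cannot show whether the p-values hold for libraries that may be technical.

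The 39 genes and the further lists were chosen with earlier results of these data known. Named genes are all 39, STIL, and from each further list at most the 2 largest rises and 2 largest falls among called genes above that minimum whose groups did not overlap. Gene positions are from GENCODE 29 (GRCh38) and promoter windows from RefSeq (GRCh38.p14).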

Additional observations from a re-analysis of the deposited data

How the results depend on the processing

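Of the 39 genes, 29 had the same direction and the same side of the threshold in every setting that gave a value. Over all 542 values of the 39 genes under the alternatives, 497 had the same direction and side of the threshold as in the fit reported, 35 lost a call (TRAF6, REL, TNIP2, IKBKB, CHUK and MAP3K14), 6 gained one (IKBKG, TNFRSF1B) and 4 changed sign. The median log2 fold change of the 39 genes, 0.41 as reported, was 0.43 with quantile normalization, 0.43 with a prior count of 0.25, 0.43 when edgeR was run on the reads and 0.43 when DESeq2 was. At an adjusted p under 0.05, 26 rose and 5 fell. At an adjusted p under 0.01 with an absolute log2 fold change over 1, 7 rose and 0 fell, where 456 and 495 of all 15953 genes did. Leaving out 1 library at a time gave 22 to 24 rises, 2 to 4 falls and a median of 0.38 to 0.43, with STIL between -2.01 and -1.96. In the same fits 2400 to 2801 of all 15953 genes rose and 2500 to 2837 fell. The genes that changed sign were not called in any setting: LTBR was at -0.060 with quantile normalization and between -0.14 and 0.37 without 1 library, and RIPK1 between -0.049 and 0.027 without 1 library. The cause was not tested.

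Deviations of same-numbered libraries correlated at -0.121, -0.055 and -0.107, so no shared replicate effect was seen. Whether the replicate numbers pair the libraries is not given in the sources used here. With a replicate block, 24 of the 39 genes rose and 4 fell (median 0.41, STIL -1.99), where 3430 and 3468 of all 15953 genes did. IKBKB and MAP3K14 lost the call (limma adjusted p = 0.0163 and 0.0165) and IKBKG gained it (0.00987). Without shSTIL replicate 3, TNFRSF1B passed the threshold (log2 fold change 0.57, limma adjusted p = 0.0061), on 1 read in each of the other shSTIL libraries. Without shNC replicate 2, IKBKG passed (-0.30, limma adjusted p = 0.00483). Over all genes, leaving out shSTIL replicate 3 gave 2400 rises and 2500 falls, against 3750 and 3759 from all 6 libraries. Leaving out a library leaves 5 for the test. The depth leaves TNFRSF1B, TNFRSF9 and LTBR, with 0 to 9 reads per library, without a usable comparison.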

Other observations

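The genes that surround TRAF1 on chromosome 9 were looked up after its value was seen. Within 200000 bases of TRAF1, 6 other genes were in the tables, and none had a difference of its size. For larger rises this follows largely from the choice of TRAF1 as the largest rise among called, non-overlapping genes above a set mean level. All neighbours except C5 lay above that level. The comparison therefore cannot decide whether the rise was confined to TRAF1, and the values of the neighbours are given as a description. C5, the next gene upstream and a complement component, had 20 to 37 reads in shNC and 40 to 60 in shSTIL. It rose and only just passed the threshold (log2 fold change 0.79, standard error 0.23, limma adjusted p = 0.01 when rounded). PHF19, the next gene on the other side, had overlapping groups (log2 fold change -0.031, 95% confidence interval -0.12 to 0.060, limma adjusted p = 0.587). FBXW2 and MEGF9 rose by 0.32 and 0.28 (limma adjusted p = 1.3e-05 and 3.9e-04), and PSMD5 and CNTRL were at 0.043 and 0.073 (limma adjusted p = 0.323 and 0.266).

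Neighbours among the 39 genes did not always move alike. BCL3 and RELB lie 241385 bases apart on chromosome 19, with log2 fold changes of -0.16 and 1.22, and TRAF3 and TNFAIP2 lie 211941 bases apart on chromosome 14, with 0.80 and 0.06. LTA, the third gene of the TNF and LTB cluster, was at a low level in both groups, with log2 CPM values of -1.02, -1.45 and -1.20 in shNC and of 0.91, 0.90 and 1.47 in shSTIL, and all shSTIL libraries lay above all shNC libraries (log2 fold change 2.31, limma adjusted p = 2.5e-06). LTA was singled out after its values were seen.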
